A study of Mus musculus with 6 samples.

Results

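The cytosolic ribosomal protein genes were read from a gene expression microarray of sorted mouse microglia. Members were chosen by symbol. A probe counted when its transcript accession belonged to a gene whose symbol starts with Rpl or Rps followed by a digit, a or p. Ribosomal S6 kinases and symbols containing -ps were left out. This gave 156 of the 56605 probes on the array and 89 of the 23462 genes that could be named. Of these genes, 46 encode large-subunit proteins, 31 encode small-subunit proteins and 12 are paralogues, retrocopies or companions whose symbol fits the rule (Rpl3l, Rpl7l1, Rpl10l, Rpl22l1, Rpl32l, Rpl36al, Rpl37rt, Rpl39l, Rps27l, Rps4l, Rps23rg1 and Rps19bp1). The rule itself uses symbols only, so Rps4l was kept although its probe is assigned to a noncoding transcript.

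The study compared microglia that lack the transcription factor Bhlhe41 with microglia that retain 1 functional copy. The control group, B41HET, comprised 3 samples of the genotype Bhlhe41 dTomato-Cre/+, and the knockout group, B41KO, comprised 3 samples of the genotype Bhlhe41 dTomato-Cre/dTomato-Cre, all from mice aged 3 months. The knock-in cassette ends translation of Bhlhe41 and places dTomato and Cre under its promoter, so both groups carried dTomato and Cre, the knockout from both alleles and the control from a single allele. The controls were heterozygotes rather than wild-type mice. Each sample pooled the brains of several mice, and live CD45lo Cx3cr1+ CD11b+ cells were sorted after Percoll enrichment, so p-values measure the spread between pools.

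Ribosomal proteins assemble with ribosomal RNA into a large subunit, which forms the peptide bond, and a small subunit, which reads the messenger RNA. Their mRNAs are among the most abundant in a cell and many start with a terminal oligopyrimidine tract, a run of C and T bases through which mTORC1 signalling and the RNA-binding protein Larp1 control their translation. Bhlhe41 is a repressor of the basic helix-loop-helix family that binds E-box sequences such as CACGTG. Ribosomal protein genes also have many processed copies in the genome, so a probe may read more than its named gene.

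The 6 arrays had 70.1% to 75.5% of probes well above background and no saturated spot, and all lay on 1 slide scanned at 1 time. Before normalization the 75th percentile of log2 signal was 8.26, 8.29 and 8.08 in B41HET samples 1 to 3. In B41KO samples 1 to 3 it was 7.92, 8.09 and 7.92. Correlations of log2 signal were 0.989 to 0.993 within a genotype and 0.985 to 0.989 between genotypes. The Bhlhe41 transcript did not check the labels. Its brightest probe had log2 signals of 7.95, 7.87 and 7.65 in B41HET and 8.56, 7.84 and 8.21 in B41KO (log2 fold change 0.38, SE 0.20, limma adjusted p = 0.33). The dimmer Bhlhe41 probe read 7.86, 7.58 and 7.40 in B41HET and 7.96, 7.90 and 7.96 in B41KO, without overlap (0.33, SE 0.13, limma adjusted p = 0.203). All 10 microglia markers examined were well above background on every array. The 12 neutrophil and monocyte markers were all lower in B41KO, 10 of them past the test, and their median log2 signal was 9.85 to 9.92 in the 3 B41HET samples and 7.51 to 7.67 in the 3 B41KO samples. In such bulk samples fewer cells of a type and less RNA per cell cannot be told apart. Any part of these marker differences in the ribosomal protein values below was not tested.

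Ribosomal protein transcripts had slightly higher values in B41KO microglia under every normalization tried, though not in values without normalization between arrays, and few single genes passed the test. The probe with the highest mean signal stood for each gene, and a gene was called where the limma adjusted p (Benjamini-Hochberg over 56601 probes) was at most 0.05 and the log2 fold change at least 0.5 in either direction. Rps20, Rpl37rt and Rpl34 rose, no member fell, and 86 of 89 genes were not called. The 3 called genes were 3.37% of the members, against 5.45% of all named genes called in either direction, 1.44% called higher and 4.01% called lower. By adjusted p alone, 9 members (10.1%) were higher and 1 (1.12%) was lower, against 2.13% and 5.43% of all named genes. With 1 sample left out at most 2 members were higher and 1 was lower by adjusted p alone, against 0.367% to 0.78% and 1.2% to 2.23% of all named genes, and none passed with the slide row as a block, against 0.358% and 0.494%. A trended, robust variance gave 26 higher and 5 lower, against 3.82% and 8.26% of all named genes, and normexp background correction gave 25 higher and 6 lower, against 4.79% and 8.96%. Arrays aligned at their 75th percentile gave 5 higher and 0 lower, against 2.12% and 3.76%. Alignment at the median gave 2 higher and 1 lower, against 1.24% and 5.02%. The authors' processed values gave 14 higher and 1 lower, against 2.44% and 5.29%. Cyclic loess gave 8 higher and 2 lower, against 1.91% and 5.61%. Without normalization between arrays 0 were higher and 1 was lower, against 0.494% and 5.04%.

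Small differences were spread over many members. The median log2 fold change over the 89 genes was 0.16, a fold of 1.12, with an interquartile range of 0.03 to 0.28, against a median of 0.01 over all named genes. Fitted changes were above 0 in 70 of 89 genes (78.7%), against 51.2% of all named genes. All 3 B41KO samples lay above all 3 B41HET samples for 48 members (53.9%), against 14.2% of all named genes, and below them for 14 members (15.7%), against 18% of all named genes. Of the 156 member probes, 60 were printed 10 times and their spots averaged, where all 56605 probes had 59305 spots. Any part of this averaging in the shares was not tested. The median member deviated from its own mean over the arrays by -0.05, -0.06 and -0.09 in B41HET samples 1 to 3, and by 0.07, 0.05 and 0.07 in B41KO samples 1 to 3. The genotypes did not overlap on this measure, and no single sample stood apart from its group.

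**Figure D1:**
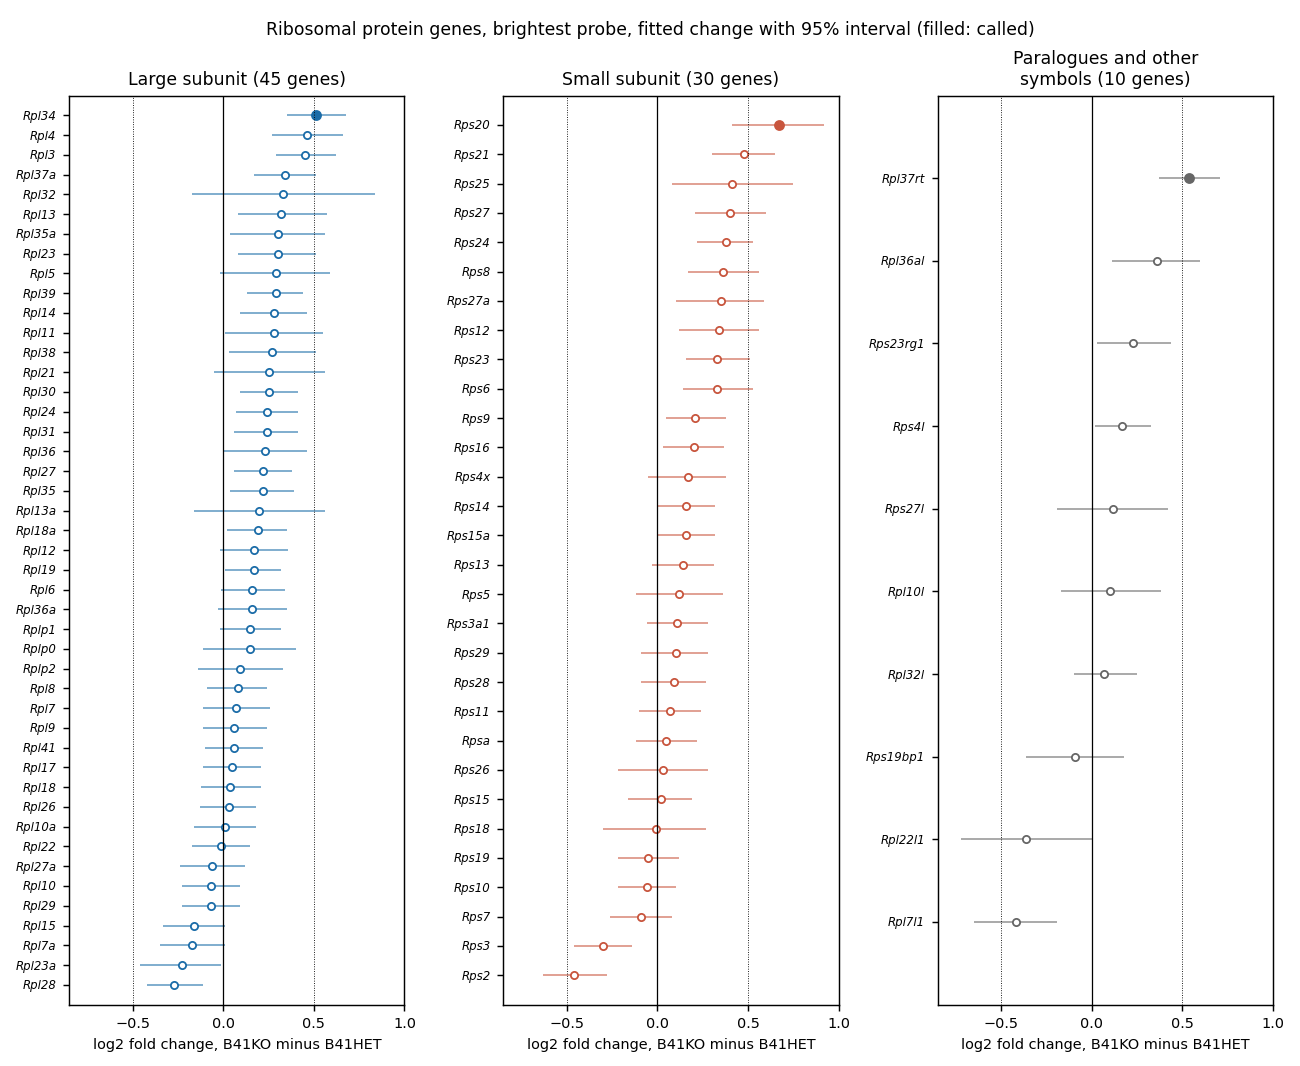
Fitted log2 fold change (B41KO minus B41HET, horizontal axis) of 85 of the 86 ribosomal protein genes detected on all 6 arrays (1 small-subunit gene is not shown), with 95% intervals from limma (n = 3 samples per genotype). Filled points are the 3 called genes, Rpl34, Rps20 and Rpl37rt, dotted lines mark a log2 fold change of 0.5 either way, and most other points lie between 0 and 0.5 on this quantile-normalized scale (without normalization between arrays only 30 of 89 genes were above 0).

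How far the members stood from other genes depended on the scaling. Quantile normalization gives every array the same distribution, so a value is relative to the other probes and a change of the whole RNA content would not be seen. Without normalization between arrays the members' median was -0.09 and that of all named genes was -0.14, and only 30 of 89 members were above 0. Across all the settings that rescaled the arrays, the members' median exceeded that of all named genes by 0.05 to 0.18, with 0.05 when arrays were aligned at their 75th percentile, which moved all named genes to 0.10, and also 0.05 when arrays were aligned at their median, where all named genes stayed at 0.01 and the members' median was 0.06 with 55 of 89 above 0. Compared with the 2807 other genes whose mean log2 signal was 10 or more, a limit chosen after the values were seen, the members' median was higher by 0.21 in the reported values and by 0.18 to 0.23 in every setting tried.

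Genes with strong signals were also counted by themselves. Among all 2886 genes with a mean log2 signal of 10 or more, 79 were members. In this range 46 of 79 members (58.2%) had all B41KO samples above all B41HET samples, against 17.8% of the genes in the range, and 11 (13.9%) had them below, against 36.6%. By adjusted p alone 8 members (10.1%) were higher and 1 (1.27%) was lower, against 2.56% and 13.3% of the genes in the range. The median change was 0.26, 0.22 and 0.23 for the 4, 25 and 27 members with mean log2 signals of 10 to 11, 11 to 12 and 12 to 13, where other genes had -0.03, -0.13 and -0.10. For the 23 members above 13 it was 0.07, where other genes had a median of 0.00. The median SE was 0.07 over all 89 members, dim ones included, and 0.09 over the other genes with a mean log2 signal of 10 or more. Any part of this SE difference in the shares above was not tested.

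**Figure D2:**
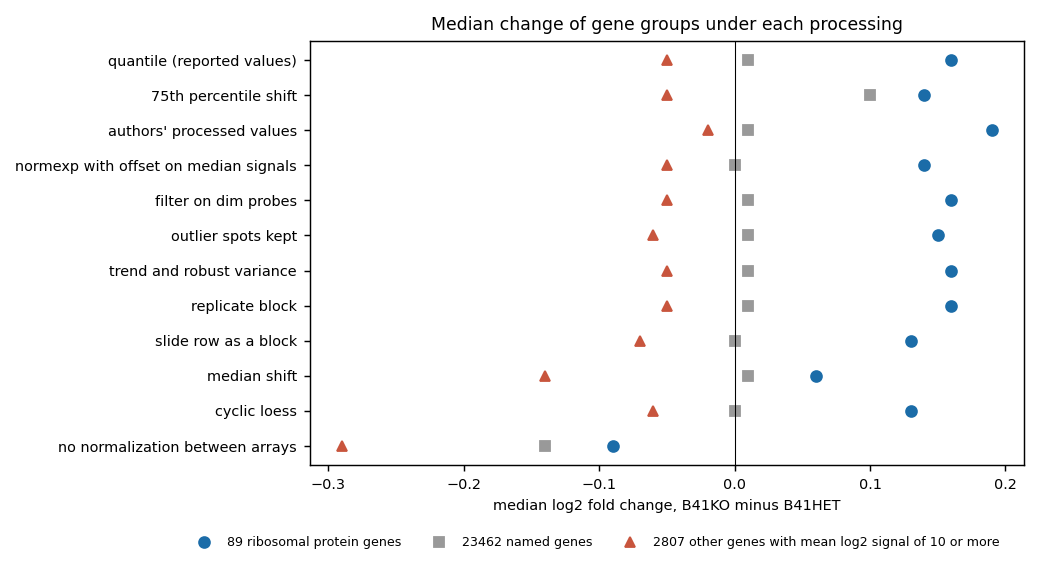
Median log2 fold change (B41KO minus B41HET, horizontal axis) of the 89 ribosomal protein genes, of all 23462 named genes and of the 2807 other genes with a mean log2 signal of 10 or more, under each processing. The ribosomal protein median lies above both other medians in each row, at 0.16 in the reported values, and falls below 0 (-0.09) without normalization between arrays.

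Rps20 encodes a protein of the head of the small subunit. Its brightest probe gave log2 signals of 9.43, 9.40 and 9.59 in B41HET and 9.98, 10.25 and 10.18 in B41KO. Every B41KO value was above every B41HET value. Rps20 rose by a log2 fold change of 0.67 (SE 0.10, limma adjusted p = 0.0256). Another Rps20 probe rose as well, from 9.31, 8.99 and 9.25 to 10.19, 10.08 and 9.71 (log2 fold change 0.81, SE 0.16, adjusted p = 0.0448). The remaining Rps20 probe was well above background on 1 B41HET and 2 B41KO arrays and gives no usable change.

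Rpl34, a protein of the large subunit, was measured by a single probe printed 10 times on each array, with a median SD between its spots of 0.0757 log2 units. Its log2 signals were 12.51, 12.49 and 12.42 in B41HET and 13, 13 and 12.95 in B41KO. The gap between the groups was wide beside the spread within them, and Rpl34 rose by 0.51 on the log2 scale (SE 0.07, limma adjusted p = 0.0159). Rpl37rt is a retrotransposed copy of Rpl37. Its single probe read 12.17, 12.19 and 12.07 in B41HET and 12.65, 12.71 and 12.70 in B41KO, again without overlap, and it rose by 0.54 (SE 0.07, adjusted p = 0.0156). The probe named Rpl37 itself stayed near background throughout (well above it on 0 arrays), so whether the Rpl37rt probe reads transcripts of the parent gene could not be seen here.

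These 3 calls sat close to the threshold. The Rpl34 call was lost with arrays aligned at their 75th percentile or their median, with cyclic loess normalization and with normexp background correction, and the Rpl37rt call with arrays aligned at their median, where Rps2 was called lower. All 3 calls, Rps20 included, were lost without normalization between arrays and with the replicate number as a block. With 1 sample left out, Rps20 remained called only without B41KO sample 1, Rpl34 only without B41KO sample 3 and Rpl37rt in no case, although their log2 fold changes ranged only from 0.61 to 0.74, 0.49 to 0.53 and 0.50 to 0.56 and their adjusted p-values from 0.0429 to 0.0993, 0.0456 to 0.0728 and 0.0521 to 0.0668. The slide held all B41HET samples and B41KO sample 1 in its upper row and the other B41KO samples in its lower row. With the row as a block, which rests the comparison on row 1 and so on B41KO sample 1 alone, the changes were 0.51, 0.53 and 0.51.

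Other large-subunit proteins passed the adjusted p without reaching the fold threshold. Rpl3, which lies next to the peptidyl transferase centre, read 13.26, 13.30 and 13.18 in B41HET and 13.71, 13.71 and 13.68 in B41KO (log2 fold change 0.45, adjusted p = 0.0232). Rpl4, which lines the peptide exit tunnel, read 11.41, 11.58 and 11.49 in B41HET and 11.89, 12.03 and 11.95 in B41KO (0.46, adjusted p = 0.0321). Both genes had higher values in every B41KO sample. The weaker probes of Rpl3 gave smaller changes, 0.19 (adjusted p = 0.138) and 0.09 (adjusted p = 0.52). Rpl37a gave 0.34 (adjusted p = 0.0487), with 10.65, 10.62 and 10.62 in B41HET and 11.04, 10.97 and 10.91 in B41KO.

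Rpl39, a small protein of the exit tunnel, had 5 probes, the most of any member. All 5 were higher in every B41KO sample, with log2 fold changes of 0.29, 0.29, 0.35, 0.37 and 0.42. The probes at 0.35 and 0.42 passed the adjusted p (0.0383 and 0.0253) and none reached the fold threshold. Rpl5 and Rpl11, which bind 5S ribosomal RNA and can restrain Mdm2, gave 0.29 (adjusted p = 0.241) and 0.28 (adjusted p = 0.207). Rpl28 was the lowest of the detected large-subunit genes, at 13.50, 13.48 and 13.46 in B41HET and 13.23, 13.21 and 13.19 in B41KO. Its groups did not overlap, and its change of -0.27 did not pass (SE 0.06, adjusted p = 0.0677).

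Over the 46 large-subunit genes the median log2 fold change was 0.17, with 37 above 0, 4 higher by adjusted p alone and none lower, where all named genes had 51.2% above 0, 2.13% higher and 5.43% lower. The acidic stalk, which recruits the elongation factors, is built from Rplp0, Rplp1 and Rplp2. Their changes were 0.15 (95% interval -0.11 to 0.40, adjusted p = 0.478), 0.15 (-0.02 to 0.32, adjusted p = 0.268) and 0.09 (-0.14 to 0.33, adjusted p = 0.623). None passed. A dimmer Rplp1 probe gave 0.41 (0.19 to 0.63, adjusted p = 0.0539), with every B41KO sample above every B41HET sample.

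Small-subunit genes lay on both sides of 0. Over the 31 genes the median log2 fold change was 0.14, with 25 above 0, 4 higher by adjusted p alone and 1 lower, beside the same shares of all named genes (51.2%, 2.13% and 5.43%). Rps21 read 11.48, 11.47 and 11.39 in B41HET and 11.98, 11.88 and 11.91 in B41KO (0.48, adjusted p = 0.0213). Rps27, a zinc-finger protein of the small subunit, gave 0.40 (adjusted p = 0.0424), and Rps24 gave 0.38 (adjusted p = 0.0298) with 12.29, 12.27 and 12.25 in B41HET and 12.62, 12.64 and 12.66 in B41KO. In all of these genes the groups were separate, and in none did the change reach 0.5.

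Rps2 was the opposite case and the only member lower by adjusted p alone. Rps2 and Rps3 line the channel by which mRNA enters the small subunit. Rps2 read 12.20, 12.14 and 12.18 in B41HET and 11.77, 11.74 and 11.65 in B41KO (-0.46, SE 0.07, adjusted p = 0.0239), and its weaker probe showed 0.05 (adjusted p = 0.787). With each sample left out in turn its change was -0.48 to -0.42 and the adjusted p 0.0636 to 0.0891. Rps3 read 12.76, 12.70 and 12.67 in B41HET and 12.41, 12.41 and 12.40 in B41KO (-0.30, adjusted p = 0.0548). The B41KO values of the brightest probe of each gene lay below all B41HET values.

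Several small-subunit genes with roles outside the ribosome core were not called. Rpsa, also known as the laminin receptor, gave 0.05 (95% interval -0.12 to 0.22, adjusted p = 0.731), and its dimmer probe gave 0.32 (0.14 to 0.49, adjusted p = 0.0605) without overlap between the groups. Rps27a, made as a fusion with ubiquitin, gave 0.35 (0.10 to 0.59, adjusted p = 0.108), and its dimmer probe gave -0.01 (adjusted p = 0.958). Rps6, the substrate of S6 kinases, gave 0.33 (0.14 to 0.53, adjusted p = 0.0658), and its dimmer probe gave -0.06 (adjusted p = 0.655). Rps25 gave 0.41 (0.08 to 0.75, adjusted p = 0.144), with B41KO sample 3 at 10.45 and the other B41KO samples at 10.85 and 10.89, and it was called when B41KO sample 3 was left out. The brightest probes of the 3 members with the highest signals gave -0.06 for Rps10, 0.02 for Rps15 and 0.06 for Rpl41, while the dimmer Rps10 probe gave 0.42 (adjusted p = 0.146).

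**Figure D3:**
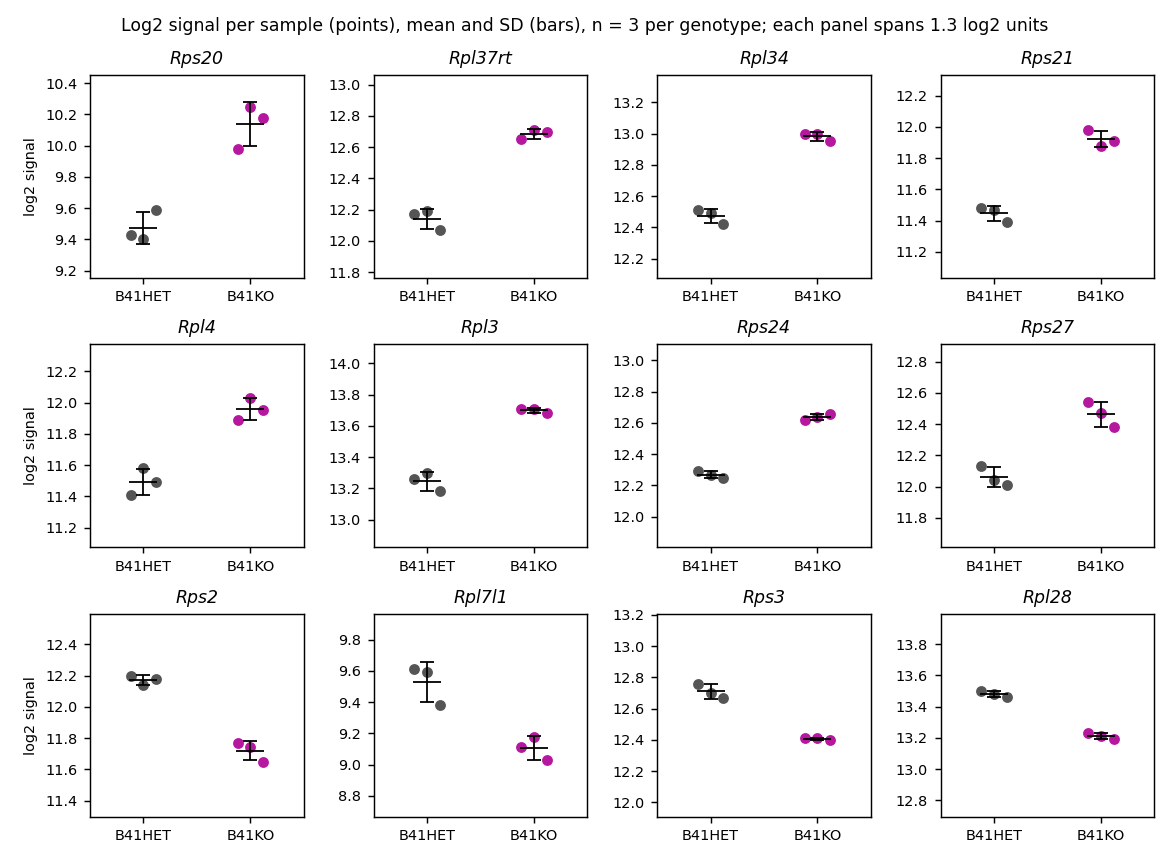
Log2 signal (vertical axis) of 12 ribosomal protein genes in each of the 3 B41HET and 3 B41KO samples, with mean and SD. B41KO points lie above all B41HET points for the first 8 genes, Rps20 to Rps27, and below them for Rps2, Rpl7l1, Rps3 and Rpl28.

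Paralogues were set beside their parent genes. Rpl7l1, a nucleolar relative of Rpl7, read 9.61, 9.59 and 9.38 in B41HET and 9.11, 9.18 and 9.03 in B41KO (-0.42, SE 0.09, adjusted p = 0.0585), while Rpl7 gave 0.07 (adjusted p = 0.622). Rpl22l1, which can replace Rpl22, gave -0.36 (adjusted p = 0.232), while Rpl22 gave -0.01 (adjusted p = 0.939). Rpl36al gave 0.36 (adjusted p = 0.0982) beside 0.16 for Rpl36a (adjusted p = 0.284). Rps27l, a p53 target, gave 0.12 (adjusted p = 0.633) beside 0.40 for Rps27. None of these paralogues was called, and the difference between a paralogue and its parent was not tested. Rps4l gave 0.17, Rpl10l 0.10, Rpl32l 0.07, Rps23rg1 0.23 and Rps19bp1 -0.09, none of them called. Rpl3l, expressed mainly in striated muscle, and Rpl39l, known from testis, were likewise not detected.

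Probes of the same gene did not always move alike. Among the 49 member genes with several probes, 33 had all detected probes above 0, 2 had all below 0 and 14 had both signs. Counted by probe, 7 of 156 (4.49%) were called and all were higher, against 5.07% of all probes called in either direction and 1.72% called higher. The probe calls beyond the brightest probes lay in Rps19, Rps3a1, Rps4x and Rps20. Rps19, mutated in Diamond-Blackfan anaemia, was the widest case. Its dimmer probe rose from 10.01, 9.98 and 9.97 to 10.71, 10.69 and 10.59 (log2 fold change 0.68, adjusted p = 0.00892), whereas its brightest probe read 11.57, 11.60 and 11.53 in B41HET and 11.53, 11.46 and 11.57 in B41KO (-0.05, adjusted p = 0.731).

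The difference between the dimmest and the brightest detected probe of a gene was tested with limma over 5588 genes. It passed an adjusted p of 0.05 in 8 of 49 members (16.3%), against 19.4% of all genes tested. The signed log2 fold change was higher on the dimmest probe than on the brightest in Rps19 (by 0.73, adjusted p = 0.00622), Rpl7a (by 0.72, adjusted p = 0.00774), Rps2 (by 0.51, adjusted p = 0.0236), Rps3a1 (by 0.50, adjusted p = 0.0325), Rps10 (by 0.48, adjusted p = 0.0435) and Rps4x (by 0.46, adjusted p = 0.0472), among others. In Rps6 it was lower, with a difference of -0.40 (adjusted p = 0.0469). In these 8 genes the fold change therefore depended on the probe. The signed change was higher on the dimmest probe in 30 of 49 members (61.2%), against 54.2% of all genes tested. Over the 151 detected member probes, the log2 fold change and mean signal had a Pearson correlation of -0.20 and a Spearman correlation of -0.34, given as a description because the probes share arrays and transcripts, with -0.08 for each over 24212 detected named probes.

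**Figure D4:**
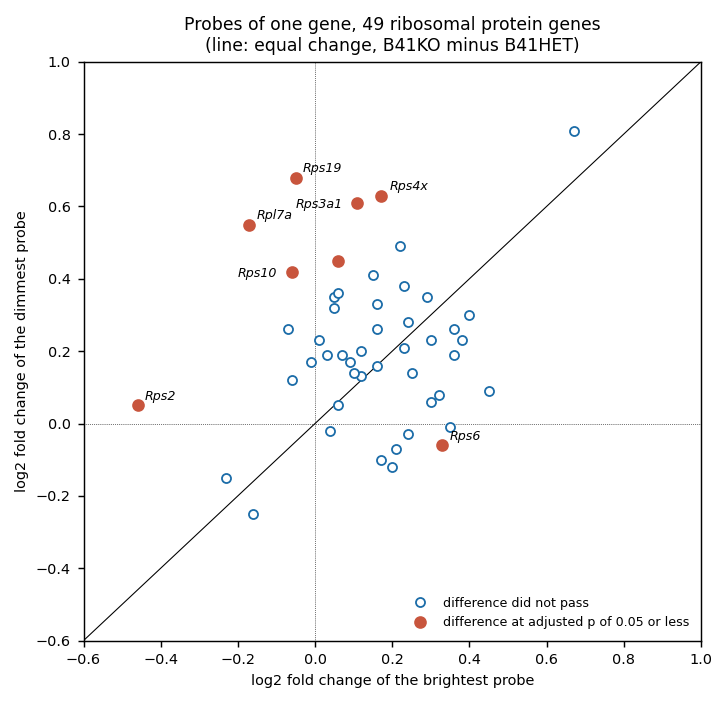
Log2 fold change (B41KO minus B41HET) of the dimmest detected probe (vertical axis) against that of the brightest (horizontal axis) for the 49 ribosomal protein genes with several probes, with the line of equal change. The 8 filled genes differed between their probes (adjusted p at most 0.05), and 7 of them lie above the line.

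The bases around the transcription start were read because the pyrimidine tract of these mRNAs lies there. Promoter sequences from RefSeq (build GRCm38.p6) were found for 68 of 89 members. The following windows run from 20 bases before the start through the first 10 bases of the transcript, 5′ to 3′ on the gene's strand, and capitals mark a run of 8 or more C or T bases within 5 bases of the start. They are shown for members named above, 4 with such a run and 4 without. Where a gene had several starts, the one with the longest run is shown, as for Rpl34 and Rps24 (2 starts each).
Rpl34 (chr3:130730328-130730357, minus strand): ccgCCCCTTCCTTTTCCTCTTCCggggacg
Rps27 (chr3:90213639-90213668, minus strand): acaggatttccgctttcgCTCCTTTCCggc
Rps24 (chr14:24490658-24490687, plus strand): acgcccccgcgctggggTCCTTCCTTgcgc
Rpl28 (chr7:4792945-4792974, plus strand): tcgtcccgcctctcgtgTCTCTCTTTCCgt
Rps2 (chr17:24720043-24720072, plus strand): tgcgtaggcagtcgagatctcgcgcttctt
Rps3 (chr7:99483700-99483729, minus strand): gaacacttgcaagggtcgccgcgctgcgcg
Rpl39 (chrX:37085213-37085242, minus strand): ccccccctaagctccgcctctagcgacttc
Rpl37rt (chr5:115110259-115110288, minus strand): tgtctgtcttcaggccagagcccgcaccca

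The run was present in 26 of 68 members (38.2%) and in 11.4% of the 27025 genes with a promoter sequence. For this and each sequence feature below, a gene counted where any of its starts had it. A stricter form, C at the start followed by 4 or more C or T bases, was present in 14 members (20.6%) and in 3.01% of all. Rpl34, Rps27 and Rps24 carried the run, as did Rpl28, whose change of -0.27 did not pass (adjusted p = 0.0677), and Rps2, the member lower by adjusted p alone, lacked it. The median log2 fold change was 0.16 in the 26 members with the run and 0.14 in the members without it.

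The E-box CACGTG, read on both strands because it is its own reverse complement, lay between 250 bases before and 50 bases after the start of 6 of 68 members (8.82%), close to the 8.09% of all genes. These were Rpl13a, Rpl14, Rpl19, Rpl23, Rpl34 and Rps19, with a median log2 fold change of 0.24 against 0.13 in the other members. Rpl34 was the only called gene among them by its brightest probe. The core of ETS-family sites, CCGGAAG or its reverse complement CTTCCGG, lay in the same window of 26 members (38.2%) and in 9.93% of all genes, with medians of 0.10 in members with it and 0.17 without it. CTTCC within this motif can also form part of a pyrimidine run. A match is a sequence only and does not show that a factor binds.

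Other ribosomal proteins that the symbol rule missed were not called. Fau, whose product includes the small-subunit protein eS30, gave 0.22 (adjusted p = 0.255), and Rack1, a scaffold on the small subunit, gave 0.00 (adjusted p = 0.984). The 78 mitochondrial ribosomal protein genes, which serve a separate ribosome, had a median log2 fold change of -0.02 with 2 called higher and 3 called lower, beside 5.45% of all named genes called in either direction.

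Genes that act on or with the ribosome were read from the same fit, in which 1.44% of all named genes were called higher and 4.01% lower. Among 22 translation factors and their companions the median was 0.06, with 1 called higher and none lower. Eif3l, a subunit of the initiation factor eIF3, rose from 7.58, 7.48 and 7.26 to 8.17, 8.14 and 8.13 (0.71, adjusted p = 0.0198). The elongation factor Eef2 read 14.32, 14.20 and 14.07 in B41HET and 13.75, 13.77 and 13.60 in B41KO (-0.49, adjusted p = 0.0452), just short of the fold threshold. Among 32 ribosome biogenesis genes the median was -0.05, with none called higher and 1 lower. Nop2, a nucleolar RNA methyltransferase, fell by 0.53 on the log2 scale (adjusted p = 0.0338), from 7.72, 7.76 and 7.65 to 7.19, 7.31 and 7.04. Gar1 (0.49, adjusted p = 0.0259) and Bysl (-0.40, adjusted p = 0.0403) passed the adjusted p in opposite directions without reaching the fold threshold.

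Among 21 regulators of mTORC1 signalling and of oligopyrimidine mRNAs the median was -0.13, with none called higher and 1 lower. Rps6kb2, an S6 kinase, fell from 11.93, 11.91 and 11.92 to 11.21, 11.12 and 11.01 (log2 fold change -0.80, SE 0.08, adjusted p = 0.00793). Larp1 read 9.53, 9.53 and 9.51 in B41HET and 9.86, 9.87 and 9.87 in B41KO (0.34, adjusted p = 0.0353). Myc, a transcriptional activator of ribosome synthesis, read 13.97, 13.96 and 13.85 in B41HET and 13.48, 13.53 and 13.39 in B41KO (-0.46, adjusted p = 0.0299). Max, the partner of Myc, gave -0.37 (adjusted p = 0.0498). The groups were separate for Larp1, Myc and Max, and none reached the fold threshold.

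Markers of other cells were counted by the same rule, which called 1.44% of all named genes higher and 4.01% lower. Of 10 border macrophage markers 5 were called lower, with a median of -1.06, and of 7 erythroid and platelet markers 3 were called higher, with a median of 0.30. Of the 10 microglia markers 1 was called, Fcrls, which fell by 0.76 on the log2 scale (adjusted p = 0.00581), and their median was -0.05. Neuron, astrocyte and oligodendrocyte markers had 1 of 10 called lower, endothelial markers 2 of 8 and lymphocyte markers 2 of 9.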

How the data were processed

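Total RNA from 6 samples was labelled with Cy3 and hybridised to single-colour Agilent mouse arrays. Scanner files were deposited by the authors as intensity from Agilent Feature Extraction 11.5.1.1 (background-subtracted processed signal, with median signals beside it). The deposited table of the authors' processed log2 values (56745 entries, 140 of them controls; quantile normalized per the study's methods, with the same median, 5.1, in every sample) ranked probes as the scanner values did (Spearman 0.999999 or above) and served as an alternative.

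Control and outlier spots (95 to 136 outliers per array) were removed, log2 processed signal was quantile normalized across arrays, spots of a probe were averaged, and genotype was fitted with limma 3.58.1 (lmFit, eBayes) in R 4.3.3, the study's normalization and test. Calls needed a Benjamini-Hochberg adjusted p of at most 0.05 and a log2 fold change of at least 0.5 either way. In simulated data with 200 changed among 56559 probes, 68% were recovered at a log2 change of 1 and 93% at 2, with 14 false calls among 175. Smaller changes, such as those called among the members, were not simulated. Normexp (offset 50) used median signals, since no mean signal column was used here. Transcript accessions were matched to RefSeq genes (GRCm38.p6), naming 33767 probes (59.7%). The array number limits the precision.

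Named genes were the called members, the 5 highest and 5 lowest changes, the stalk, Rpsa, Rps27a, paralogues, genes with 3 or more probes, the 3 brightest members and called genes of other lists. Genes named for passing the adjusted p alone, for probe differences or for their role were added after their values were seen. Members and lists were chosen with earlier results of these data known. Alternatives covered scaling, background, outliers, dim probes, variance, blocks, each sample left out and the choice of probes. Some genes counted among the members and lists are not reported here by name.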

Additional observations from a re-analysis of the deposited data

How the results depend on the processing

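The 3 calls among ribosomal protein genes and their median log2 fold change of 0.16 were recomputed under other settings. The authors' processed values gave 5 called members and a median of 0.19, with 3025 probes called in place of 2867. The 75th percentile shift gave 2 called members, a median of 0.14 and 2831 called probes. Normexp gave 2 called members, a median of 0.14 and 1500 called probes. Dropping the fold threshold gave 10 called members, counting every probe by itself gave 7, and averaging the probes of a gene gave a median of 0.18. Leaving out each sample in turn gave 0 to 2 called members (Rps20 without B41KO sample 1, Rpl34 and Rps25 without B41KO sample 3, and Rpl37, lower and not above background, without B41HET sample 2), medians of 0.15 to 0.18 and 792 to 1525 called probes. With the slide row as a block the median was 0.13, with 0 called members and 444 called probes. Settings chosen after seeing the data were the median shift (median 0.06), cyclic loess (median 0.13) and no normalization between arrays (median -0.09, 1 called member, Rps2, which was lower). The dim-probe filter called 3 members and 3420 probes, and the trended, robust variance 4 members, 1 of them lower (Rpl37, not above background), and 3204 probes. Of named genes, Rps18 (-0.01) turned to 0.03 under the 75th percentile shift, 0.08 in the authors' values and 0.00 with the slide row, and ranged from -0.13 to 0.06 with 1 sample left out. Rpl26 (0.03) turned to -0.01 under the 75th percentile shift, and Rps15 (0.02) ranged from 0.00 to 0.04 with 1 sample left out. The cause was not tested.

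Samples of the 2 genotypes share replicate numbers, but deviations of same-numbered samples correlated at 0.0275, 0.0135 and 0.0478, so the numbers were not taken as pairs. With the replicate number as a block, 0 member genes and 42 probes were called and the median stayed at 0.16.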
